A study of Mus musculus with 9 samples.

Results

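The members described here are the genes of oxidative phosphorylation, taken by gene symbol from a table of FPKM values (fragments per kilobase of transcript, normalised to the mapped fragments of the library) of mouse nasal mucosa. The symbols were those beginning mt-, Nduf, Uqcr or Atp5, those beginning Cox with a digit from 4 to 8, and the succinate dehydrogenase genes Sdha to Sdhd. This rule took 108 of the 21930 rows, 13 of them encoded in mitochondrial DNA and 95 in the nucleus. Of the nuclear genes, 85 encode subunits and 10 encode factors that assemble the complexes or join them (Ndufaf1 to Ndufaf8, Atp5s and Cox7a2l). The rule used no measured values.

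The 9 libraries came from poly(A) RNA of nasal mucosa of wild-type mice, 3 libraries in each of 3 groups. The papain+MSC-Exos mice received papain, a protease used to raise eosinophilic inflammation of the nose, and nasal exosomes of mesenchymal stromal cells. The papain mice received papain and no exosomes, and the control mice are labelled as untreated. Papain was given into the nose as 20 μg in 20 μl on days 0 to 2 and 7 to 11, and the exosomes on days 7 to 11. Mice were sampled on day 12. The treatment text sets exosomes against PBS (phosphate-buffered saline) but does not say which group received the PBS. It is not stated whether the libraries are separate mice or pools of animals, so the p-values measure the spread between libraries, which may be technical.

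Oxidative phosphorylation is the last stage of respiration, in the inner mitochondrial membrane. Complexes I (NADH dehydrogenase) and II (succinate dehydrogenase) pass electrons through ubiquinone to complex III (cytochrome bc1) and by cytochrome c to complex IV (cytochrome c oxidase), and complex V (ATP synthase) makes ATP from the proton gradient that complexes I, III and IV build. All complexes but II mix subunits from both genomes, so that nuclear and mitochondrial genes must supply parts of the same machine. In the nose, motile cilia, olfactory neurons and fluid-secreting glands all use much ATP.

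Nuclear genes of the complexes are often bound by the factors NRF1, YY1 and those of the ETS family close to their start, and 3 short motifs were searched on both strands of the promoters. RefSeq (GRCm38.p6) gave promoters of 250 bases before to 50 after the start for 74 of the nuclear member genes. The NRF1 core GCGCATGCG was in 13.5% of the 74, against 1.95% of the 27025 genes with a promoter. The ETS motif CCGGAAG was in 24.3% of the 74 and 9.93% of all. The YY1 motif AAGATGGCG was in 10.8% of the 74 and 1.64% of all. The NRF1 core and its other strand overlap when followed by C, so that a site GCGCATGCGC was matched on both strands, and the ETS motif and the YY1 motif share the letters AAG. A match is a description of the letters and not of a bound site. Of the promoters with matches 4 are shown over the 120 bases just before the start, 5′ to 3′ on the gene's own strand, with the matches in capitals. Ndufa11 encodes a membrane subunit of complex I, Atp5g2 a gene for the membrane ring of complex V, and Atp5k and Atp5j subunits of complex V.
Ndufa11, chr17:56717642-56717761, plus strand: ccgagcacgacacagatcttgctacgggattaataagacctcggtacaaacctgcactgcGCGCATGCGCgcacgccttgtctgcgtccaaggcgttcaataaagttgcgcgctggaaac
Atp5g2, chr15:102671048-102671167, minus strand: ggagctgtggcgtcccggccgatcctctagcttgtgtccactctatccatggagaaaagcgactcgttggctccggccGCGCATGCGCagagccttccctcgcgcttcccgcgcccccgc
Atp5k, chr5:108434400-108434519, minus strand: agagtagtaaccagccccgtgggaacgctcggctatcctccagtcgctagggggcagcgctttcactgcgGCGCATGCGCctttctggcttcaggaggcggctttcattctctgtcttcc
Atp5j, chr16:84834977-84835096, minus strand: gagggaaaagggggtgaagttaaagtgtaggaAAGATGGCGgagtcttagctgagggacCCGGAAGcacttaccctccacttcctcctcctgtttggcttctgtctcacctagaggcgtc
The NRF1 match began 60 bases before the start in Ndufa11, 42 in Atp5g2 and 50 in Atp5k. In Atp5j the YY1 match began 88 and the ETS match 61 bases before the start used here, 1 of 2 that RefSeq lists. These 4 genes were chosen after their values were seen.

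The mitochondrial genes are packed on 1 circle, and the reading frames of both of its complex V genes overlap. The 43 shared bases of mt-Atp8 and mt-Atp6, from the GENCODE M21 transcripts (GRCm38), are shown because reads inside them cannot be told apart between the genes. The capitals mark the start codon of mt-Atp6.
mt-Atp8 and mt-Atp6, chrM:7927-7969, plus strand: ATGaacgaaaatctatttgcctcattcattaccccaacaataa
The gene mt-Nd6 lies on the other strand and shares its last 14 bases with the end of mt-Nd5. The strand setting of the counting is not given in the sources used here, so transcripts from both strands of that region cannot be told apart.

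The libraries differed in a way that touches every level below. The 15 most abundant genes, odorant-binding and other secretory genes of the nasal glands, held 24.3%, 28.9% and 47.0% of the length-weighted FPKM in the papain+MSC-Exos libraries, 47.0%, 64.5% and 51.3% in the papain libraries, and 62.6% to 65.3% in the control libraries. FPKM divides by all fragments, so less signal in those genes raises every other value. Each result is therefore given as deposited and after median-of-ratios scaling, which sets the typical gene level between libraries. The factors were 1.75, 1.60 and 1.18 in the papain+MSC-Exos libraries, 1.07, 0.71 and 0.97 in the papain libraries, and 0.76 to 0.77 in the control libraries. Depth, estimated from the smallest FPKM steps, was 15.2 to 24.8 M fragments per library and is rough. In bulk tissue fewer cells of a type and less RNA per cell cannot be told apart.

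Of the cell type markers, 8 of olfactory neurons summed to 525 to 940 scaled FPKM in papain+MSC-Exos, 256 to 465 in papain and 600 to 740 in control libraries. The 6 nasal gland markers summed to 48843 to 128210 scaled FPKM in papain+MSC-Exos, 138960 to 269310 in papain and 258040 to 303010 in control libraries. Their part in the results on the members was not tested. Of the testis germ cell markers Prm1 and Tnp1 were listed at 0 in every library. All 4 eosinophil markers (Epx, Prg2, Siglecf and Ccr3) were under 1 FPKM in every library, but their sums differed between groups. They were 0.62 to 0.81 scaled FPKM in papain+MSC-Exos, 1.16 to 1.52 in papain and 0.07 to 0.31 in control libraries. The markers did not move together between both papain groups. As deposited, Prg2 had 0.51, 0.46 and 0.43 FPKM in papain+MSC-Exos and 0.92, 0.83 and 0.72 in papain libraries. Siglecf had 0.81, 0.64 and 0.25 FPKM in papain+MSC-Exos and 0.19, 0.12 and 0.32 in papain libraries. Epx and Ccr3 overlapped between those groups.

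The mitochondrially encoded genes were among the most abundant transcripts of the tissue. Their summed FPKM as deposited was 37309, 36036 and 36879 in the papain+MSC-Exos libraries, 40497, 30588 and 34770 in the papain libraries, and 33385, 29459 and 31512 in the control libraries. The papain+MSC-Exos libraries lay within the spread of the papain libraries and above all control libraries. After scaling the order turned. The sums were then 21380, 22582 and 31352 in papain+MSC-Exos, 37891, 43075 and 35797 in papain, and 43672, 38619 and 41177 in control libraries. On this scale all papain+MSC-Exos libraries lay below all others, while the papain and control libraries overlapped.

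The 95 nuclear genes summed to 6445, 6165 and 5420 FPKM in papain+MSC-Exos, 5687, 4359 and 5330 in papain, and 4470, 3808 and 4275 in control libraries as deposited. Every papain+MSC-Exos library lay above every control library, and papain library 1 lay above papain+MSC-Exos library 3. Scaled, the nuclear sums were 3693, 3863 and 4608 in papain+MSC-Exos, 5321, 6139 and 5487 in papain, and 5848, 4992 and 5586 in control libraries, again with the papain+MSC-Exos libraries below all others. The ratio of both sums does not depend on the scaling, but trends on transcript length or GC content do not cancel in it. It was 5.79, 5.85 and 6.80 in papain+MSC-Exos (6.15 ± 0.57, SD, n = 3), 7.12, 7.02 and 6.52 in papain (6.89 ± 0.32, SD, n = 3), and 7.47, 7.74 and 7.37 in control libraries (7.53 ± 0.19, SD, n = 3). Every library of either papain group lay below every control library. The papain+MSC-Exos and papain libraries overlapped through papain+MSC-Exos library 3, the library of that group with the largest share of secretory genes.

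**Figure D1:**
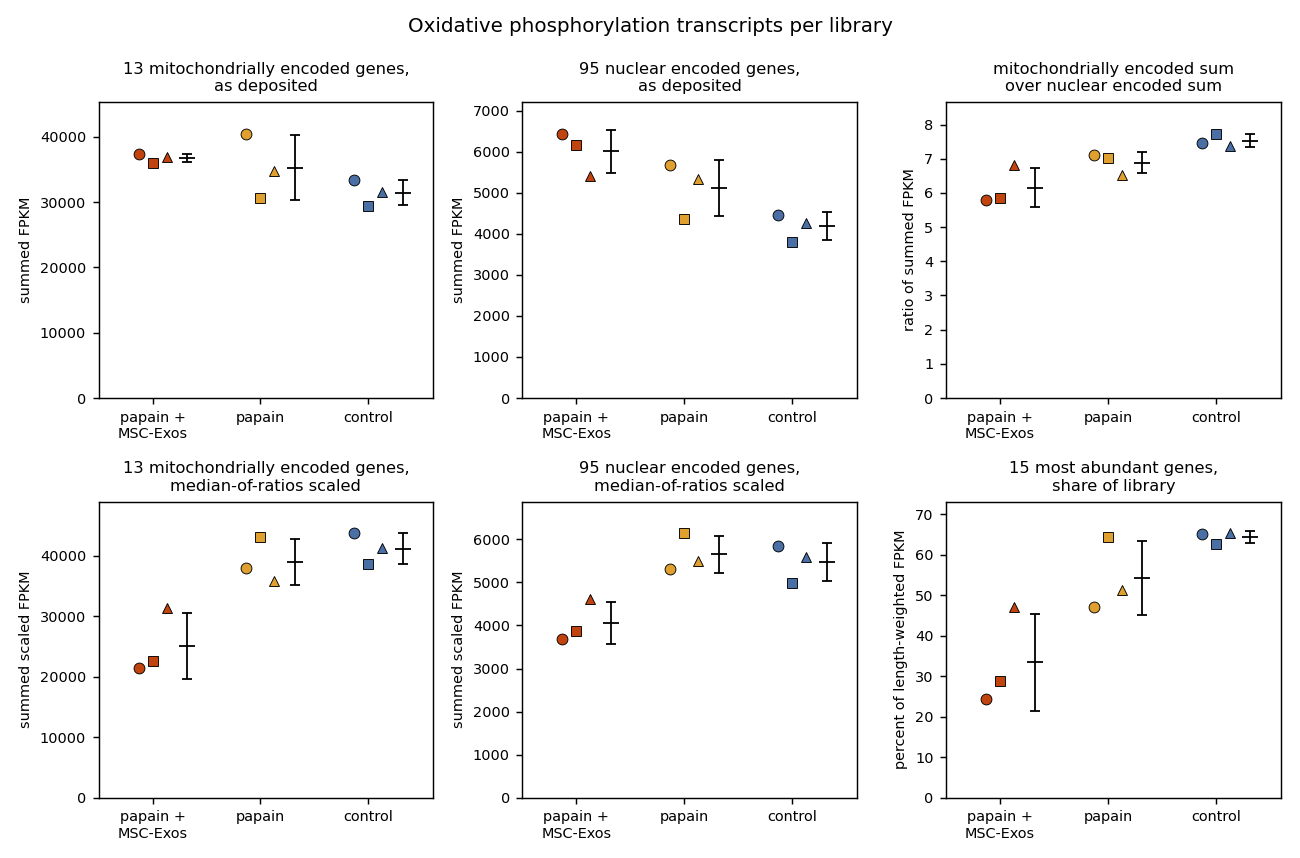
Summed levels of the 13 mitochondrially and the 95 nuclear encoded genes per library (FPKM as deposited above, scaled FPKM below), the ratio of both sums, and the share of the 15 most abundant genes. Circles, squares and triangles are libraries 1, 2 and 3 and the bars are mean and SD (n = 3). The scaled sums of all papain+MSC-Exos libraries lie below those of the other groups, and the ratio of the sums lies at 5.79 to 6.80 in papain+MSC-Exos, 6.52 to 7.12 in papain and 7.37 to 7.74 in control libraries.

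Single genes were tested as log2(FPKM + 1) with limma on all libraries together, over genes with at least 1 FPKM in at least 3 libraries, with Benjamini-Hochberg adjustment over all of those genes and a threshold of 0.05. All 13 mitochondrial and 89 nuclear members passed that filter. The other 6 nuclear members did not: Cox4i2, Cox6a2, Cox7b2, Cox8c, Ndufa4l2, and a second identifier of Atp5o that was listed at 0 in every library.

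In papain+MSC-Exos against papain libraries, 31 of the 89 nuclear members were higher and 0 lower as deposited, with a median log2 difference of 0.28 and a range of -0.37 to 0.89. Of all 12738 genes tested, 63% were higher and 0.73% lower, with a median of 0.56. After scaling, 51 of the 89 were lower and 0 higher, with a median of -0.40 and a range of -1.04 to 0.20. Of the 12507 genes tested on that scale, 16.2% were lower and 13.4% higher, with a median of -0.01. The mitochondrial members were called in neither direction as deposited, with a median of 0.05 and no member at an adjusted p under 0.191, and 9 of 13 were lower after scaling, with a median of -0.67. On both scales the members thus lay below the typical gene of the tissue, while the sign of their own median turned with the scaling for the nuclear and the mitochondrial genes.

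The scaled count depended on single libraries, as did that of all genes. Of the 51 nuclear calls, 21 were also made in each fit that left out 1 library, and of the 9 mitochondrial calls 2 were, those of mt-Nd2 and mt-Nd3. Left out singly, papain+MSC-Exos library 1, papain+MSC-Exos library 2 and papain library 2 gave 21, 24 and 27 nuclear members lower. Over the fits that left out 1 library, the count of all genes lower ran from 997 to 2199, beside 2022 with all libraries. Calls were thus lost over all genes as well, and whether the loss was larger among the members was not tested.

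Against control libraries, 55 of the 89 nuclear members were higher and 0 lower in papain+MSC-Exos libraries as deposited, with a median log2 difference of 0.49. The background was 84.3% higher and 0.526% lower, with a median of 0.76. Scaled, 55 were lower and 1 was higher (Atp5d), with a median of -0.44, beside a background of 15.6% lower and 12.3% higher and a median of 0.01. In this comparison 22 nuclear members were called higher as deposited and lower after scaling, among them Ndufa1, Ndufs4, Sdhb, Uqcrh, Cox5b and Atp5f1. Of the mitochondrial members 0 were called as deposited (median 0.23) and 12 of 13 were lower scaled (median -0.73). With TPM, which gives every library the same total, in place of FPKM as deposited, 12 mitochondrial members were higher. The share of all genes higher with TPM is not given here, so that count is not a result about the members. Both comparisons of the papain+MSC-Exos libraries share those libraries. At an unadjusted limma p under 0.05, for which all genes were not counted, 0 mitochondrial members passed as deposited in either of them, and 0 nuclear members were lower.

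Few members were called with papain alone. In papain against control libraries 0 nuclear members were higher and 0 lower as deposited, beside a background of 3.01% higher and 0.518% lower. Scaled, 1 nuclear member was higher (Cox5a) and 3 were lower (Ndufv3, Ndufv1 and Sdhb), beside a background of 5.77% higher and 4.15% lower. The mitochondrial members were called in neither direction on either scale, with medians of 0.16 as deposited and -0.08 scaled. The nuclear median was 0.24 as deposited and 0.00 scaled, and the all-gene median was 0.19 as deposited. At an unadjusted limma p under 0.05, 14 nuclear members were higher and 0 lower as deposited, and 2 were higher and 15 lower scaled. On neither scale did more than 0 mitochondrial members pass in either direction. All genes were not counted at that unadjusted threshold, so these counts have no background and are not a result about the members.

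**Figure D2:**
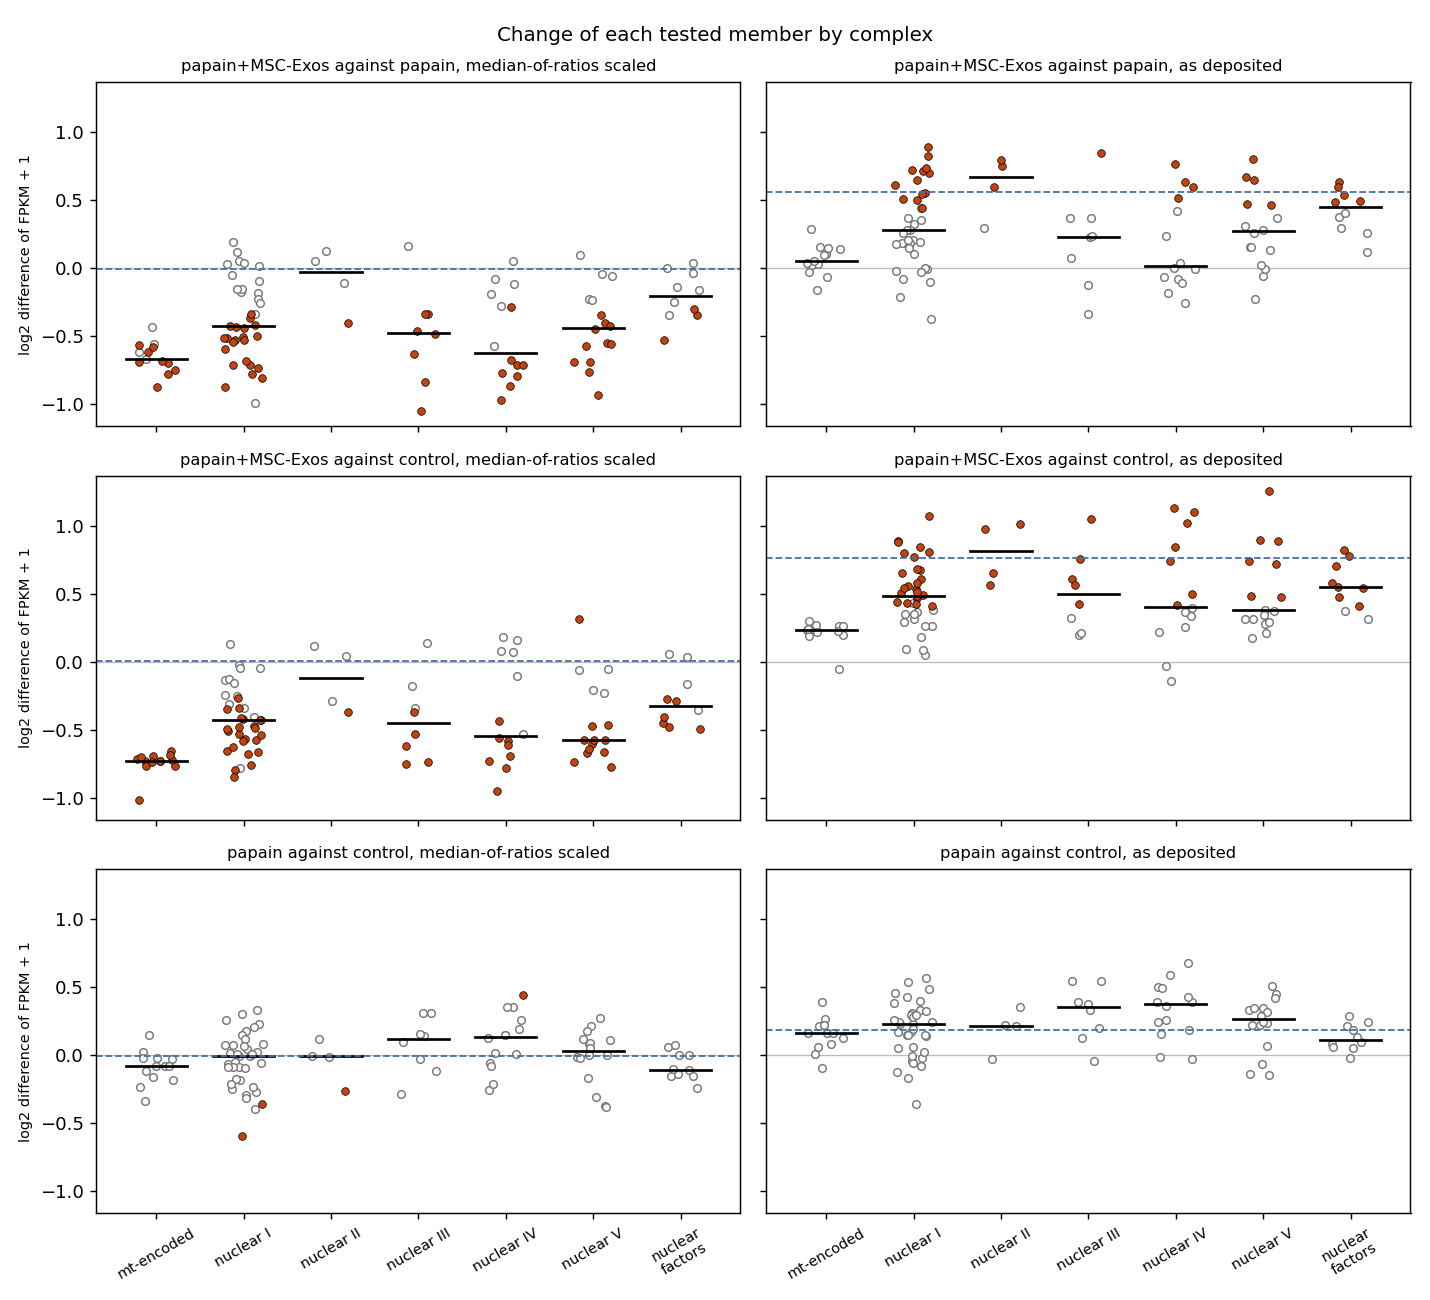
Log2 difference of FPKM + 1 of each tested member, by genome and complex, in 3 comparisons (rows), median-of-ratios scaled at left and as deposited at right. Filled points have an adjusted p under 0.05, short bars are medians and the dashed line is the median of all genes tested. In both comparisons of papain+MSC-Exos libraries the medians of the mitochondrial genes and of nuclear complexes I, III, IV and V lie below the dashed line on both scales.

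The mitochondrially encoded complex I genes build the membrane arm that pumps protons, and 6 of those 7 were called lower in papain+MSC-Exos than in papain libraries after scaling. Of all genes tested, 16.2% were lower there. The gene mt-Nd2 had 864, 877 and 1155 scaled FPKM in papain+MSC-Exos, 1615, 1761 and 1553 in papain, and 2000.2, 1839 and 1960.4 in control libraries. The 3 groups did not overlap on that scale. Its scaled log2 difference was -0.78 (SE 0.16) in papain+MSC-Exos against papain, with an adjusted p of 0.00873, and -1.01 (SE 0.16) against control, with an adjusted p of 0.00352. As deposited both differences were -0.06, with adjusted p of 0.776 and 0.783.

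The gene mt-Nd3 had 434, 394 and 606 scaled FPKM in papain+MSC-Exos, 801, 990 and 806 in papain, and 864, 717 and 760 in control libraries. It lay lower in every papain+MSC-Exos library than in any other, with a scaled log2 difference of -0.87 (SE 0.18) against papain and an adjusted p of 0.00850. The gene mt-Nd5 had 819, 853 and 1157 scaled FPKM in papain+MSC-Exos, 1238, 1316 and 1213 in papain, and 1716, 1428 and 1623 in control libraries. It was lower in papain+MSC-Exos than in control libraries (-0.77, SE 0.17, adjusted p = 0.0111), but the difference of -0.43 from papain had an adjusted p of 0.0803.

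Both genes that share the mt-Nd5 end differed in balance between the groups. The level of mt-Nd6 was 1.26, 1.29 and 1.31 times that of mt-Nd5 in papain+MSC-Exos, 1.49, 1.42 and 1.37 times in papain, and 1.20, 1.18 and 1.20 times in control libraries. The 3 groups did not overlap in this ratio, which needs no scaling. Against mt-Cytb, the ratio of mt-Nd6 was 0.44 to 0.46 in papain+MSC-Exos, 0.39 to 0.45 in papain and 0.40 to 0.43 in control libraries, with groups that overlapped apart from papain+MSC-Exos and control.

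Of the other complex I genes in mitochondrial DNA, mt-Nd1, mt-Nd4, mt-Nd4l and mt-Nd6 were lower in papain+MSC-Exos than in papain libraries after scaling, by 0.57 to 0.69 on the log2 scale. Each of those 4 calls was lost when papain+MSC-Exos library 1 or 2 was left out. Their as-deposited differences were 0.02 to 0.15, none of them called.

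The complex III gene mt-Cytb, which carries the haem groups of cytochrome b, had 2377, 2393 and 3305 scaled FPKM in papain+MSC-Exos, 4114, 4809 and 3950 in papain, and 4773, 4233 and 4560 in control libraries. Its scaled log2 difference of -0.68 from papain had an adjusted p of 0.0341, with a deposited difference of 0.03. The catalytic gene of complex IV, mt-Co1, was the highest member of all, at 4198, 4582 and 6269 scaled FPKM in papain+MSC-Exos, 7291, 8595 and 6939 in papain, and 8757, 7481 and 8413 in control libraries. Its groups did not overlap between papain+MSC-Exos and the others, but its adjusted p was 0.0841 against papain and 0.0510 against control. The other complex IV genes, mt-Co2 and mt-Co3, were lower than in papain by 0.74 and 0.68 on the log2 scale, with adjusted p of 0.0219 and 0.0342.

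In complex V, mt-Atp6, the channel subunit through which protons flow, had a scaled log2 difference of -0.67 from papain (adjusted p = 0.0515) and -0.69 from control libraries (adjusted p = 0.0485). The gene mt-Atp8 stood at 0.77, 0.74 and 0.76 times the level of mt-Atp6 in papain+MSC-Exos, 0.69, 0.70 and 0.72 times in papain, and 0.79, 0.80 and 0.76 times in control libraries. The papain libraries lay below all others in this ratio of genes that share 43 bases.

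The nuclear subunits of complex I, 37 in number, all passed the filter. In papain+MSC-Exos against papain libraries 13 were higher and 0 lower as deposited, and 21 were lower and 0 higher scaled. The background in all genes tested was 63% higher as deposited and 16.2% lower scaled. Ndufa1, a small membrane subunit needed for assembly, had 43.9, 43.3 and 55.5 scaled FPKM in papain+MSC-Exos, 84.4, 84.4 and 81.0 in papain, and 69.2, 62.7 and 66.4 in control libraries. It was lower than in papain by 0.80 on the log2 scale (SE 0.10, adjusted p = 0.00237) with groups that did not overlap, and the call stood in every fit that left out 1 library. As deposited its difference was -0.10.

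Ndufb2, another membrane subunit, had 8.66, 8.23 and 11.8 scaled FPKM in papain+MSC-Exos, 15.05, 20.2 and 19.5 in papain, and 18.7, 14.7 and 18.2 in control libraries. Its scaled log2 difference from papain was -0.87 (SE 0.15, adjusted p = 0.00533), and -0.21 as deposited. Of the core subunits that bind NADH, flavin and iron-sulphur clusters, 4 are described. Ndufv1, which holds the flavin where NADH is oxidised, had 25.1, 27.3 and 23.2 scaled FPKM in papain+MSC-Exos, 21.8, 24.0 and 19.8 in papain, and 28.9, 26.6 and 29.2 in control libraries. The papain+MSC-Exos and papain libraries overlapped, with a scaled difference of 0.20 (SE 0.09, adjusted p = 0.137) that was the highest of all nuclear members in that comparison.

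As deposited the same gene was higher in papain+MSC-Exos by 0.89 on the log2 scale (adjusted p = 0.00211). Ndufs7, which carries the last iron-sulphur cluster before ubiquinone, had a scaled difference of 0.04 (adjusted p = 0.815) and Ndufs1, the largest core subunit, one of -0.33 (adjusted p = 0.0395). The call on Ndufs1 was lost in 6 of the 9 fits that left out 1 library, among them papain+MSC-Exos libraries 1 and 2.

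Ndufs3, a core subunit, gave the second lowest scaled difference of all nuclear members, -0.99, but was not called (adjusted p = 0.0824). It had 8.08, 2.07 and 10.3 scaled FPKM in papain+MSC-Exos, 10.1, 12.8 and 14.99 in papain, and 10.9, 10.3 and 10.7 in control libraries. The low value of papain+MSC-Exos library 2 carried the mean.

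Ndufv3, an accessory subunit beside the flavin, was the member with the clearest difference between papain and control libraries. It had 26.5, 32.4 and 33.1 scaled FPKM in papain+MSC-Exos, 34.6, 39.7 and 35.7 in papain, and 55.5, 53.0 and 58.9 in control libraries (ENSMUSG00000024038, chr17:31520115-31531331, plus strand, GRCm38). The 3 groups did not overlap. It was lower in papain than in control libraries by 0.59 on the log2 scale (SE 0.10, adjusted p = 0.00667) and lower in papain+MSC-Exos than in control by 0.85 (SE 0.10, adjusted p = 0.00128), and both calls stood in every fit that left out 1 library. Between papain+MSC-Exos and papain the difference was -0.25 (adjusted p = 0.0829). As deposited the papain difference was -0.36 with an adjusted p of 0.340.

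Its ratio to Ndufs1, which needs no scaling, was 1.61, 1.70 and 1.55 in papain+MSC-Exos, 1.49, 1.55 and 1.54 in papain, and 1.80, 2.02 and 2.21 in control libraries, with the control libraries above all others. The ratio of Ndufv3 to Ndufv1 was 1.055, 1.19 and 1.43 in papain+MSC-Exos, 1.58, 1.65 and 1.80 in papain, and 1.92, 2.00 and 2.01 in control libraries. The order of the papain+MSC-Exos and papain libraries thus depended on the partner gene. Ndufa12, an accessory subunit, had 11.0, 12.3 and 11.9 scaled FPKM in papain against 12.3, 17.9 and 17.9 in control libraries. Its difference of -0.40 was not called (adjusted p = 0.0843).

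Complex II, the only complex with no mitochondrial gene and also an enzyme of the tricarboxylic acid cycle, held 4 tested subunits. Its median scaled log2 difference was -0.02 in papain+MSC-Exos against papain and -0.12 against control libraries. Sdha, the flavoprotein that oxidises succinate, had 31.5, 32.1 and 31.5 scaled FPKM in papain+MSC-Exos, 29.8, 32.1 and 29.6 in papain, and 28.7, 33.0 and 30.7 in control libraries. All 3 groups overlapped, and the difference from papain was 0.06 (SE 0.08, adjusted p = 0.613). As deposited Sdha, Sdhb and Sdhc were higher than in papain, by 0.75, 0.59 and 0.80 on the log2 scale. Sdhd, a membrane anchor, was lower after scaling by 0.40 (adjusted p = 0.0219).

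Sdhb, the iron-sulphur subunit, had 32.8, 33.0 and 35.9 scaled FPKM in papain+MSC-Exos, 35.2, 36.7 and 37.7 in papain, and 44.5, 43.9 and 43.7 in control libraries. Every control library lay above all others, and papain+MSC-Exos library 3 lay above papain library 1. It was lower in papain+MSC-Exos than in control by 0.37 (SE 0.07, adjusted p = 0.00662). The difference of -0.26 between papain and control had an adjusted p of 0.0447, and was lost in 8 of the 9 fits that left out 1 library.

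In complex III, 7 of 8 nuclear subunits were lower in papain+MSC-Exos than in papain libraries after scaling, and 1 was higher as deposited. The background was 16.2% of all genes lower scaled and 63% higher as deposited. Uqcrb, which helps to form the ubiquinone site, had the lowest scaled difference of all members (ENSMUSG00000021520, chr13:66900617-66905378, minus strand, GRCm38). It had 45.7, 56.9 and 70.7 scaled FPKM in papain+MSC-Exos, 100.1, 138 and 120.2 in papain, and 120.2, 76.4 and 94.5 in control libraries. The papain+MSC-Exos libraries lay below all others, with a difference of -1.04 from papain (SE 0.20, adjusted p = 0.00675) that was called in every fit that left out 1 library. The as-deposited difference was -0.34 (adjusted p = 0.128).

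Uqcrc1, a core protein of the same complex, had 18.1, 18.1 and 16.6 scaled FPKM in papain+MSC-Exos, 17.5, 14.5 and 14.8 in papain, and 15.5, 17.8 and 14.6 in control libraries, and did not pass (0.16, adjusted p = 0.231). As deposited it was the subunit of the complex that was higher, by 0.85 (adjusted p = 0.00424). The ratio of Uqcrb to Uqcrc1 within each library was 2.53, 3.14 and 4.26 in papain+MSC-Exos, 5.71, 9.50 and 8.11 in papain, and 7.78, 4.29 and 6.48 in control libraries. The papain+MSC-Exos libraries lay below all papain libraries and just below the lowest control library. The Rieske protein gene Uqcrfs1 was lower than in papain by 0.33 on the scaled log2 scale (adjusted p = 0.0383), a call lost without papain+MSC-Exos library 1 or 2.

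In complex IV, 14 of the 19 nuclear genes were tested, 8 were lower in papain+MSC-Exos than in papain libraries after scaling, and 4 were higher as deposited. Beside them, 16.2% of all genes were lower scaled and 63% higher as deposited. Cox7c, a small membrane subunit, had 79.5, 86.9 and 122 scaled FPKM in papain+MSC-Exos, 171, 209.9 and 179 in papain, and 169, 122 and 148 in control libraries. It was lower than in papain by 0.97 (SE 0.18, adjusted p = 0.00598) and overlapped with control library 2. Cox4i1, the largest nuclear subunit and a regulatory one, had 136, 137 and 142 scaled FPKM in papain+MSC-Exos, 143, 153 and 144 in papain, and 140.1, 126 and 129.6 in control libraries, a difference from papain of -0.08 (adjusted p = 0.491). The ratio of Cox7c to Cox4i1 was 0.58, 0.64 and 0.86 in papain+MSC-Exos, 1.19, 1.37 and 1.24 in papain, and 1.21, 0.96 and 1.14 in control libraries, so that the papain+MSC-Exos libraries lay below all others.

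Cox5a, a core-binding subunit on the matrix side, was the single member higher in papain than in control libraries (ENSMUSG00000000088, chr9:57521274-57532426, plus strand, GRCm38). It had 49.8, 47.8 and 47.1 scaled FPKM in papain+MSC-Exos, 60.3, 61.0 and 55.3 in papain, and 45.9, 38.8 and 44.6 in control libraries. The 3 groups did not overlap. The papain libraries were higher than control by 0.44 (SE 0.09, adjusted p = 0.0124), called in every fit that left out 1 library. As deposited the difference was 0.68 with an adjusted p of 0.0763. The papain+MSC-Exos libraries were lower than papain by 0.28 (adjusted p = 0.0355), a call lost in 7 of the 9 fits that left out 1 library, and differed from control by 0.16 (adjusted p = 0.179). The ratio of Cox5a to Cox4i1 was 0.37, 0.35 and 0.33 in papain+MSC-Exos, 0.42, 0.40 and 0.38 in papain, and 0.33, 0.31 and 0.34 in control libraries, with the papain libraries above all others.

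**Figure D3:**
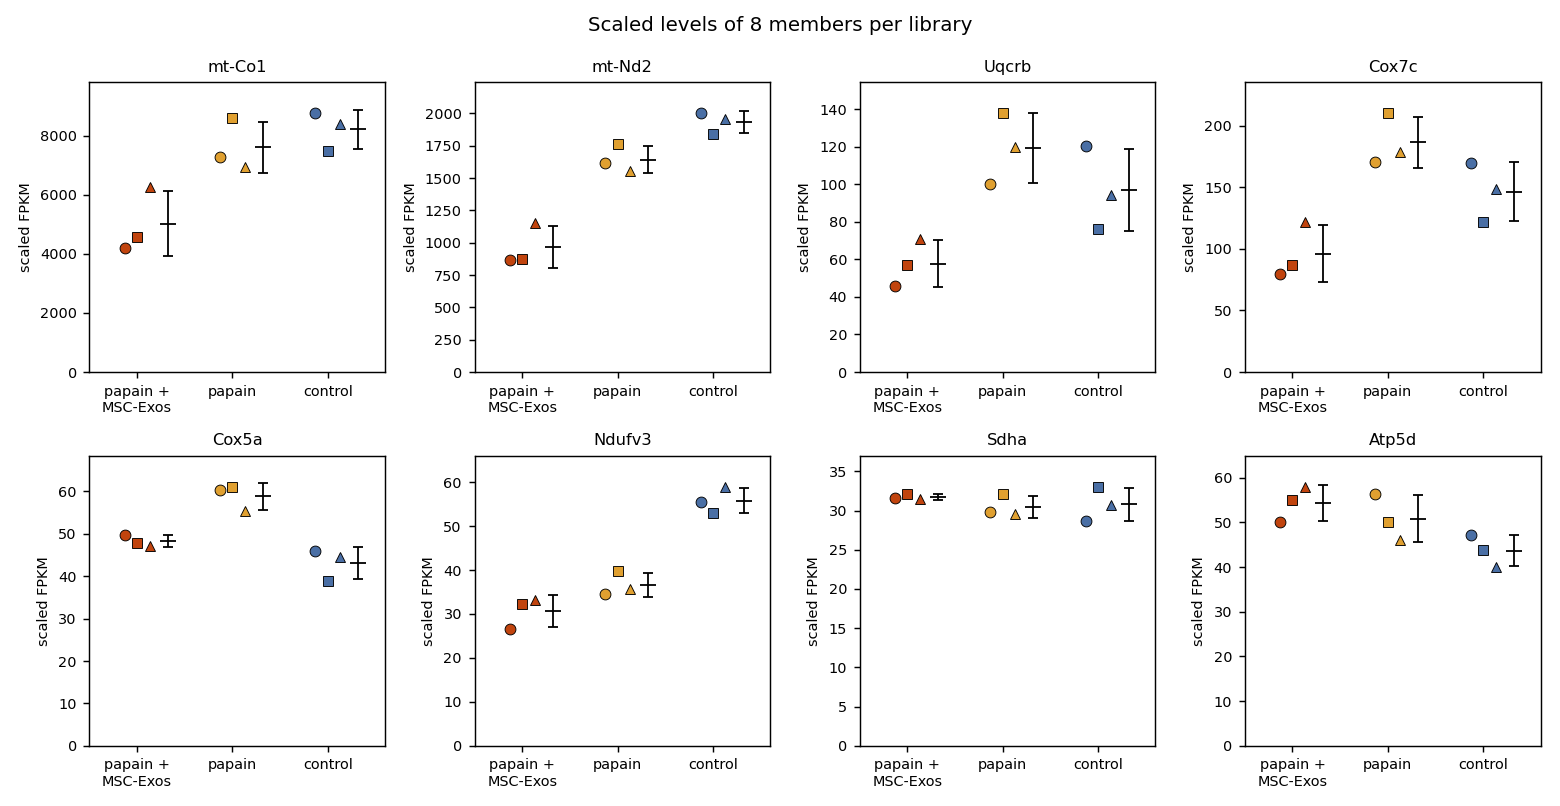
Scaled FPKM of 8 members per library, chosen after their values were seen. Circles, squares and triangles are libraries 1, 2 and 3 and the bars are mean and SD (n = 3). Uqcrb and mt-Nd2 are low in all papain+MSC-Exos libraries, Cox5a is highest in papain libraries, Ndufv3 is highest in control libraries, and Sdha lies between 28.7 and 33.0 in every library.

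Several subunits of complex IV exist as tissue isoforms, of which heart and skeletal muscle use 1 set and most other tissues the other. The muscle form Cox6a2 did not pass the filter and stood under 1 FPKM in 8 of 9 libraries. Cox7a1, the muscle form of Cox7a, reached 0.89 to 2.82 scaled FPKM in papain+MSC-Exos, 2.37 to 3.44 in papain and 3.001 to 3.99 in control libraries, against 70.2 to 105, 131 to 165 and 113 to 141 scaled FPKM of Cox7a2 in the same 3 groups. Cox8b, the rodent muscle and brown fat form of Cox8, had 16.3, 11.5 and 23.9 scaled FPKM in papain+MSC-Exos, 31.3, 31.3 and 30.5 in papain, and 35.0, 26.6 and 37.9 in control libraries.

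Cox8b was lower in papain+MSC-Exos than in papain by 0.87 on the log2 scale (SE 0.22, adjusted p = 0.0168), a call lost without papain+MSC-Exos library 1 (adjusted p = 0.0558). The form of most tissues, Cox8a, had a difference of -0.11 (adjusted p = 0.310). The ratio of Cox8b to Cox8a was 0.13, 0.09 and 0.19 in papain+MSC-Exos, 0.23, 0.22 and 0.22 in papain, and 0.25, 0.20 and 0.27 in control libraries, with the papain+MSC-Exos libraries below all others. The skeletal muscle markers, 8 in number, summed to 4.47 to 4.72 scaled FPKM in papain+MSC-Exos, 1.67 to 32.2 in papain and 2.83 to 35.4 in control libraries. The 3 brown adipocyte markers summed to 7.46 to 8.63 scaled FPKM in papain+MSC-Exos, 4.46 to 5.95 in papain and 5.28 to 7.00 in control libraries. Nearly all of that sum was Cidea, at 13.7, 11.9 and 9.96 FPKM as deposited in papain+MSC-Exos, 4.74, 3.69 and 5.78 in papain, and 4.04, 5.34 and 4.88 in control libraries, while the defining markers Ucp1 and Elovl3 were under 1 FPKM in every library. The part of either marker list in the Cox8b values was not tested.

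The testis form Cox6b2 was present at a low level, at 0.027, 0.024 and 0.030 times Cox6b1 in papain+MSC-Exos, 0.018, 0.019 and 0.030 times in papain, and 0.013, 0.014 and 0.018 times in control libraries. All papain+MSC-Exos libraries lay above all control libraries in this ratio. Cox6b1 was lower than in papain by 0.67 on the scaled log2 scale (adjusted p = 0.0129). Another pair of testis forms, Cox7b2 and Cox8c, were listed at 0 in 8 and 9 of the 9 libraries. The lung and hypoxia form Cox4i2 lay under 1 FPKM in every library. Ndufa4, now counted as a subunit of complex IV, was lower than in papain by 0.71 (adjusted p = 0.00598), while its relative Ndufa4l2 lay under 1 FPKM in every library.

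In complex V, 16 of 17 nuclear genes were tested. In papain+MSC-Exos against papain libraries 11 were lower scaled and 5 were higher as deposited. Beside them, 16.2% of all genes were lower scaled and 63% higher as deposited. Atp5mpl, a small membrane protein of the synthase, had 68.9, 73.0 and 99.9 scaled FPKM in papain+MSC-Exos, 146, 163 and 149.9 in papain, and 144, 105 and 133 in control libraries. The papain+MSC-Exos libraries lay below all others, with a difference from papain of -0.93 (SE 0.16, adjusted p = 0.00458). The catalytic head subunits were not called after scaling. Atp5b, which forms the catalytic sites, had 152, 156 and 161 scaled FPKM in papain+MSC-Exos, 154, 178 and 152 in papain, and 182, 173 and 189 in control libraries, and a difference from papain of -0.04 (adjusted p = 0.778). Atp5a1, its partner in the head, had a difference of -0.06 (adjusted p = 0.619), and both were higher as deposited, Atp5b by 0.67 and Atp5a1 by 0.65. The ratio of Atp5mpl to Atp5b was 0.45, 0.47 and 0.62 in papain+MSC-Exos, 0.95, 0.91 and 0.98 in papain, and 0.79, 0.61 and 0.70 in control libraries. The papain+MSC-Exos libraries lay below all papain libraries, and library 3 of that group overlapped control library 2.

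The central stalk differed between its own subunits. Atp5c1, the gamma subunit that turns inside the head, was lower than in control libraries by 0.78 (SE 0.12, adjusted p = 0.00320) and than in papain by 0.40 (adjusted p = 0.0318). The call against papain was lost without papain library 2 or 3 or papain+MSC-Exos library 1 or 2. Atp5d, the delta subunit of the stalk, had 50.1, 55.1 and 57.9 scaled FPKM in papain+MSC-Exos, 56.4, 50.1 and 46.0 in papain, and 47.1, 43.8 and 40.1 in control libraries. Its papain+MSC-Exos libraries lay above control by 0.31 on the scaled log2 scale (adjusted p = 0.0471), lost in 8 of the 9 fits that left out 1 library, and by 1.25 as deposited (adjusted p = 0.000111).

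Subunit c, which forms the rotating ring, is encoded by 3 genes that give the same mature protein. Atp5g3 was the most abundant, at 102 to 112 scaled FPKM in papain+MSC-Exos, 122 to 132 in papain and 106 to 121 in control libraries. Atp5g1 had 17.4, 16.7 and 21.1 scaled FPKM in papain+MSC-Exos, 19.9, 22.9 and 22.0 in papain, and 26.5, 25.9 and 33.0 in control libraries. It was lower than in control by 0.60 in papain+MSC-Exos (SE 0.12, adjusted p = 0.00721), while the difference of -0.38 in papain had an adjusted p of 0.0742. The ratio of Atp5g1 to Atp5g3 was 0.17, 0.16 and 0.19 in papain+MSC-Exos, 0.16, 0.17 and 0.18 in papain, and 0.22, 0.24 and 0.31 in control libraries, with every control library above every other. Atp5g2 was lower than in papain by 0.45 (adjusted p = 0.0304), lost without papain library 2 or 3 or papain+MSC-Exos library 1 or 2. How reads shared by these related genes were assigned is not given in the sources used here.

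**Figure D4:**
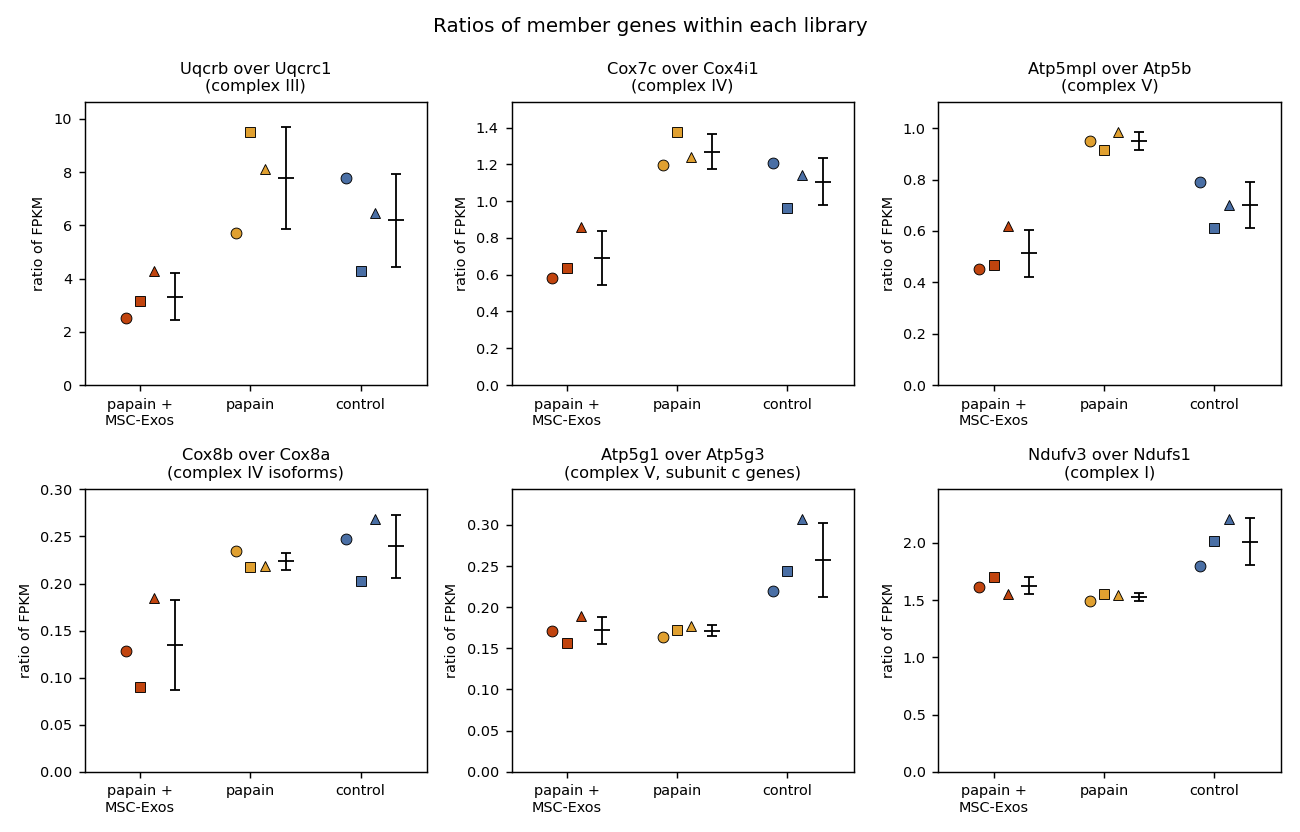
Ratios of FPKM of member genes within each library, which do not depend on scaling, for 4 pairs chosen after their values were seen (Uqcrb over Uqcrc1, Cox7c over Cox4i1, Atp5mpl over Atp5b, Ndufv3 over Ndufs1) and 2 isoform pairs (Cox8b over Cox8a, Atp5g1 over Atp5g3). Trends on transcript length and GC content do not cancel in these ratios. Uqcrb has 535 nt and 42.2% GC by annotation, and Uqcrc1 1653 nt and 57.5%. The part of such trends in the ratios was not tested. Circles, squares and triangles are libraries 1, 2 and 3 and the bars are mean and SD (n = 3). For Uqcrb, Cox7c, Atp5mpl and Cox8b the papain+MSC-Exos libraries lie below all papain libraries, with an overlap with control library 2 for Atp5mpl, and the control libraries lie above all others for Ndufv3 and Atp5g1.

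The scaled differences of papain+MSC-Exos libraries varied with transcript length and, over all genes tested, more strongly with GC content (the share of G and C letters). By annotated length (the transcripts of GENCODE M21, which need not be the forms expressed here), the scaled log2 difference from papain libraries had a median of -0.52 over the 29 nuclear members under 600 nt, with 22 of them lower. The median was -0.43 over the 27 members from 600 to under 1000 nt, -0.32 over the 24 from 1000 to under 2000 nt, and -0.22 over the 9 of 2000 nt or more, of which 2 were lower. All genes tested followed the same order, with medians of -0.45, -0.21, -0.05 and 0.03 and 45.4%, 29.5%, 18.7% and 12.9% of genes lower. The 89 nuclear members share the same libraries and are not independent. Across them Spearman's rho between length and the difference was 0.45 in papain+MSC-Exos against papain, and -0.31 in papain against control libraries. For GC content it was 0.25 in papain+MSC-Exos against papain. Over all genes tested, rho was 0.23 for length and 0.42 for GC content in that comparison, and 0.18 and 0.46 against control. The mitochondrial members have 31.9% to 41.1% GC, and the tested nuclear members a median of 51.6%.

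With the trend on length removed from the scaled values, 24 nuclear members were lower and 3 higher in papain+MSC-Exos against papain, and 23 of those 24 were among the 51 lower before. Of all genes, 15% were lower and 13.6% higher on those values. Uqcrb then had a difference of -0.66 (adjusted p = 0.0108). Against control libraries 32 were lower and 4 higher, beside a background of 14.9% lower and 12.5% higher. Of the mitochondrial genes, whose lengths run from 204 to 1824 nt, 6 were lower than in papain. With length and GC content removed together, 14 nuclear members and 1 mitochondrial member were lower than in papain, and 0 nuclear and 1 mitochondrial member (mt-Atp8) were higher. The background was then 8.54% lower and 8.16% higher, so that the share of the 13 mitochondrial members lower was near it. Cox5a stayed higher and Ndufv3 lower in papain than in control libraries once the length trend was removed.

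**Figure D5:**
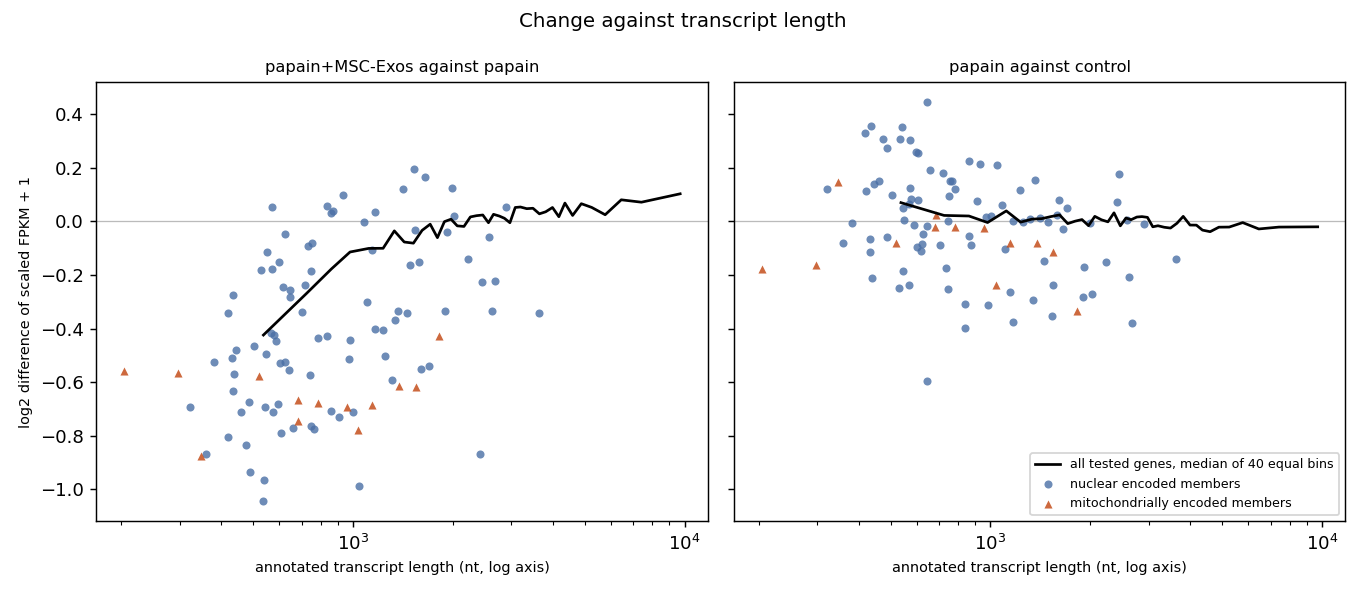
Scaled log2 difference of each tested member against its annotated transcript length (log axis), for papain+MSC-Exos against papain and for papain against control libraries, with the median of all tested genes in 40 equal bins as a line. In the first comparison the members under 600 nt have a median of -0.52 and those of 2000 nt or more a median of -0.22, and the line rises with length as well.

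Ribosome genes were counted on the same scale. Their median annotated length was 833 nt in the cytosolic and 1220 nt in the mitochondrial list, against 755 nt for the tested nuclear members. The part of length or level in their differences was not tested. Of the cytosolic ribosome genes, taken by the symbols Rpl and Rps and so with kinases such as Rps6ka1 among them, 60 of 93 tested were lower and 3 higher in papain+MSC-Exos against papain libraries after scaling, with a median of -0.63. Of the mitochondrial ribosome genes, which make the 13 mitochondrial proteins, 22 of 78 were lower and 0 higher, with a median of -0.14. The background was 16.2% of all genes lower and 13.4% higher. The nuclear members stood between both lists, at a median of -0.40.

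The other genes of the pathway, in lists made for mitochondrial function, had scaled medians of -0.33 (cytochromes c and c1) to 0.16 (glycolysis) in papain+MSC-Exos against papain libraries. Of 38 tested assembly factors of the respiratory chain, 2 were higher and 7 lower in papain+MSC-Exos against papain libraries after scaling, with a median of 0.02. Of all genes tested, 16.2% were lower and 13.4% higher, so the assembly factors were near the background share of lower genes. Cox16, a factor of complex IV, was lower by 0.71 (adjusted p = 0.00793), and Ecsit, a factor of complex I, was higher by 0.31 (adjusted p = 0.0217), a call lost without papain library 3 or papain+MSC-Exos library 1 or 2. Cycs, cytochrome c itself, was lower by 0.62 (adjusted p = 0.00410). Of 20 genes of mitochondrial transcription, replication and biogenesis, 5 were lower and 0 higher. Slirp, which binds and stabilises mitochondrial mRNA, was lower by 0.82 (adjusted p = 0.00263). Of the 15 carriers, porins and import genes 3 were lower, again near the background share, and 1 was higher. Of 6 genes of oxidant defence 2 were lower.

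Of 13 genes of the tricarboxylic acid cycle, 2 were lower and 1 was higher in papain+MSC-Exos against papain libraries, near the background of 16.2% lower and 13.4% higher. Dld, a subunit shared by several dehydrogenases, was lower by 0.52 (adjusted p = 0.00602). Of the 16 rows of the 15 glycolysis genes listed, all tested, 4 were higher and 2 lower, with a median of 0.16. Gpi1, the isomerase of glucose phosphate, was higher by 0.56 (adjusted p = 0.00333), and Ldha, which makes lactate from pyruvate, was lower by 0.75 (adjusted p = 0.00290). In papain against control libraries Ldha was higher by 0.59 (adjusted p = 0.00733), a call made in every fit that left out 1 library. Idh3b, of the tricarboxylic acid cycle, was lower there by 0.38 (adjusted p = 0.0130), a call lost without control library 3.

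The members can be described by the motif matches in their promoters. In papain+MSC-Exos against papain libraries, the 10 tested members with an NRF1 match had a scaled median of -0.39 with 5 lower, the 18 with an ETS match -0.46 with 12 lower, and the 8 with a YY1 match -0.48 with 7 lower. The 43 members with none of the 3 had a median of -0.33 with 23 lower. Of all genes tested, 16.2% were lower, and the share among all genes with each motif is not given here. Some members, such as Atp5j, are in several sets. The difference between these sets was not tested, nor was the part of transcript length and GC content in it.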

How the data were processed

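Per the submitters' processing notes, reads were trimmed with fastp 0.19.4 and processed with HISAT2 and StringTie on the mouse genome build mm10. Neither the annotation nor the strand setting nor the treatment of shared reads is given in those sources. The deposited file holds FPKM values made by the authors, 1 column for each of 9 libraries and 1 row for each of 21930 Ensembl identifiers. Of these, 21817 were matched to a symbol, position and transcript length through GENCODE M21 (GRCm38).

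Groups and replicate numbers came from the labels. From the FPKM values, log2(FPKM + 1) was fitted with limma 3.58.1 (R 4.3.3, trend in the variance, all 9 libraries, 6 residual degrees of freedom) over genes of at least 1 FPKM in at least 3 libraries, with Benjamini-Hochberg adjustment and a threshold of 0.05. A fold change on this scale understates that of low genes. Scaled values were divided by the median of each library's ratios to the geometric mean over the 16486 genes above 0 in every library, and filtered anew. Ratios and sums are on FPKM. The fit was tested on simulated data. Python 3.11.15, NumPy 2.4.6, pandas 2.3.3, SciPy 1.17.1 and matplotlib 3.10.9 were used for the rest.

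The genes named are all mitochondrial genes, the 5 nuclear members with the highest and the 5 with the lowest scaled difference in each comparison, the isoform pairs, chosen core subunits, and the called gene of smallest p of each pathway list in each direction. Others are marked as chosen after their values were seen: this also holds for the ratios outside the isoform pairs, and for Sdhc, Sdhd and Ndufs4, Uqcrh, Cox5b and Atp5f1. The members and lists were chosen with earlier results of these data known. Alternatives tried were the other scale, TPM, sums without the highest or the mitochondrial genes, pseudocount 0.1, no filter, a filter at 5 FPKM, no trend, a replicate block, only the groups compared, each library left out, and removal of trends on transcript length and GC content.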

Additional observations from a re-analysis of the deposited data

How the results depend on the processing

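The scaling set the direction of most counts, and the cause of each change below was not tested unless its construction gives it. Median-of-ratios scaling of the deposited values gave 1 nuclear member higher and 3 lower in papain against control, 0 higher and 51 lower with 9 mitochondrial members lower in papain+MSC-Exos against papain, and 1 higher and 55 lower with 12 mitochondrial members lower in papain+MSC-Exos against control. A common sum without the 15 highest genes gave 1 higher and 8 lower nuclear members in papain against control, 19 higher and 21 lower with 2 mitochondrial members lower in papain+MSC-Exos against papain, and 8 higher and 29 lower with 9 mitochondrial members lower in papain+MSC-Exos against control. Of all genes, that sum gave 5285 higher and 493 lower in papain+MSC-Exos against papain, beside 8022 and 93 as deposited. Its share of all genes in the comparisons against control is not given here, so those counts are not a result about the members. A common sum without the mitochondrial genes gave 2 mitochondrial members higher in papain+MSC-Exos against papain, and 84 nuclear and 12 mitochondrial members higher against control. TPM gave 1 mitochondrial member higher in papain+MSC-Exos against papain, and 84 nuclear and 12 mitochondrial members higher against control. As deposited, 84.3% of all genes tested were already higher against control. The share of all genes with TPM or with the sum without mitochondrial genes is not given here, so these counts are not a result about the members. Fitting only the groups compared gave 1 nuclear member higher in papain against control as deposited and 2 higher and 1 lower scaled. In papain+MSC-Exos against papain that fit gave 20 nuclear members higher as deposited and 2 mitochondrial members lower scaled. Without a filter, 2 mitochondrial members were lower in papain+MSC-Exos against papain scaled, and 0 nuclear members were higher and 4 mitochondrial members lower against control. With the replicate number as a block, scaled, 1 nuclear member was lower in papain against control and 4 mitochondrial members in papain+MSC-Exos against papain. Against control the block gave 0 nuclear members higher and 5 mitochondrial members lower in papain+MSC-Exos libraries. The numbers do not pair the libraries: deviations of same-numbered libraries from their group means correlated between -0.338 and 0.144, with 2 of 9 over 0.1. The pseudocount of 0.1 kept each count of members within 1.5 times on both scales. The filter at 5 FPKM and the fit without a trend did so as deposited, and were not run on the scaled values.

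Removal of the trends on transcript length and GC content was chosen after seeing the data. Without the length trend 5 nuclear members were lower in papain against control, 3 were higher and 24 lower in papain+MSC-Exos against papain, and 4 were higher and 32 lower against control. Without the GC trend 2 mitochondrial members were lower in papain+MSC-Exos against papain, and 0 nuclear members were higher and 1 mitochondrial member lower against control. Without both, 8 nuclear members were lower in papain against control, 14 were lower with 1 mitochondrial member higher and 1 lower in papain+MSC-Exos against papain, and 2 were higher and 23 lower with 1 mitochondrial member lower against control. Without the length trend, 15% of all genes were lower in papain+MSC-Exos against papain and 14.9% against control. Without both trends, 8.54% were lower against papain. For the other counts here the share of all genes is not given, so they are not a result about the members.

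Leaving out 1 library gave 0 to 13 nuclear members higher as deposited and 1 to 2 higher and 1 to 4 lower scaled in papain against control. In papain+MSC-Exos against papain it gave 13 to 39 higher as deposited, and 21 to 52 nuclear and 2 to 13 mitochondrial members lower scaled. Against control it gave 33 to 66 higher as deposited, and 0 to 1 higher, 26 to 57 lower and 2 to 13 mitochondrial members lower scaled. All other counts of members were 0 in each of these fits. As deposited, the count against papain was 13 without papain+MSC-Exos library 1, 14 without library 2 and 19 without papain library 2, and the count against control was 33 without papain+MSC-Exos library 1 and 37 without library 2. Scaled, the nuclear count lower than control was 26 without papain+MSC-Exos library 1, 31 without library 2, 30 without control library 1 and 29 without control library 3, and the mitochondrial count was 2 without papain+MSC-Exos library 1 or 2 or control library 1 and 3 without control library 3.

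Of the genes named that were called on at least 1 of the scales, 25 with a negative scaled log2 difference in papain+MSC-Exos against papain had a positive one as deposited: 0.67 for Atp5b, 0.65 for Atp5a1, 0.63 for Cox4i1, 0.60 for Cox8a, 0.59 for Sdhb, 0.47 for Atp5g3, 0.46 for Atp5g1, 0.44 for Ndufv3, 0.42 for Cox5a, 0.37 for Uqcrfs1, 0.35 for Ndufs1, 0.32 for Vdac3, 0.31 for Atp5c1, 0.26 for Atp5g2, 0.18 for Dld, 0.15 for mt-Nd4l, 0.14 for mt-Nd6, 0.10 for Prdx3, 0.10 for mt-Nd4, 0.068 for Cycs, 0.038 for mt-Co3, 0.037 for Cox6b1, 0.032 for mt-Cytb, 0.024 for mt-Nd1 and 0.0032 for Ndufa4. Against control 41 such genes did: 0.89 for Atp5g3, 0.89 for Atp5a1, 0.88 for Ndufs7, 0.84 for Cox8a, 0.77 for Ndufv1, 0.76 for Uqcrfs1, 0.74 for Atp5b, 0.60 for Tpi1, 0.57 for Sdhb, 0.56 for Ndufa12, 0.48 for Atp5g2, 0.47 for Ndufa1, 0.39 for Ndufa4, 0.38 for Ndufs1, 0.37 for Cox7a2, 0.34 for Cox7c, 0.33 for Timm23, 0.32 for Atp5g1, 0.30 for mt-Nd6, 0.29 for Dld, 0.29 for Cycs, 0.29 for Atp5mpl, 0.27 for mt-Atp6, 0.26 for mt-Nd4, 0.26 for mt-Co3, 0.24 for mt-Nd1, 0.24 for mt-Co2, 0.23 for mt-Nd3, 0.23 for mt-Nd4l, 0.22 for mt-Atp8, 0.22 for Cox6b1, 0.21 for Prdx3, 0.21 for Uqcrb, 0.19 for mt-Cytb, 0.19 for mt-Nd5, 0.17 for Atp5c1, 0.15 for Slirp, 0.091 for Ndufb2, 0.087 for Ndufv3, 0.075 for Mrps31 and 0.0040 for Sdhaf3. Of named genes called before or after a trend was removed, some changed sign. With the length trend removed the difference from papain was 0.045 for Cox5a and 0.032 for mt-Nd4l. With length and GC removed it was 0.54 for mt-Atp8, 0.25 for mt-Nd4l, 0.11 for Cox5a and 0.11 for mt-Nd6, and the difference from control was 0.28 for mt-Atp8, 0.13 for mt-Nd3, 0.073 for mt-Nd6 and 0.010 for Ndufa1. The number of fragments per gene is not used here, so the precision of single low values is unknown.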
